A study of Mus musculus with 18 samples.

Results

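The 42 genes described here code for parts of the cell division machinery or control entry into it, and they were listed by symbol from textbook roles, out of 49315 genes counted. The rule itself uses no measured value, but earlier results of these data were known when the genes were listed. All 42 were found among the counted Ensembl genes through the GENCODE M21 annotation of GRCm38, and 39 of them have the same start and end there. They fall into 18 genes of mitosis, 17 of DNA synthesis and S phase, 5 of G1 and entry into the cycle, and 2 inhibitors of the kinases.

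RNA was sequenced from bone marrow-derived macrophages (BMDMs), grown from the marrow of C57BL/6J mice in medium conditioned by L929 fibroblasts, a source of the growth factor M-CSF. The genotype labels are WT, which the study's methods call HDAC3 f/f (loxP sites around exon 7 of Hdac3, without Cre), and HDAC3 KO, the same floxed allele with Cre recombinase driven by the lysozyme 2 gene (LysM-Cre), so both carry the floxed gene. Libraries were made with no treatment, after coculture with non-apoptotic K562 cells (NAC), or after coculture with apoptotic K562 cells (AC), which had received UVB for 15 min. Coculture lasted 45 min, and the macrophages were kept for 5 h after the K562 cells were washed off. K562 is an established human leukemia line that divides in culture. There were 3 biological replicates in each of the 6 groups, hence 18 libraries. Neither the labels nor the methods tie a replicate number to an animal, and p-values measure the spread between these libraries.

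A cell passes from G1, when D cyclins and CDK4 prepare it for division, to S phase, when the E2F factors switch on the DNA synthesis genes and the MCM helicase opens the origins marked by the origin recognition complex. It then enters mitosis, driven by cyclin B with CDK1 and ended by the anaphase-promoting complex. Macrophages in culture divide in response to M-CSF, and the CDK inhibitors p21 (Cdkn1a) and p27 (Cdkn1b) hold the cycle back. In these bulk samples, fewer dividing cells and less RNA per dividing cell cannot be told apart.

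Hdac3 itself did not separate the labels. With no treatment it measured 3.38, 44.4 and 32 CPM (counts per 1000000 counted, scaled by the TMM method) in WT replicates 1, 2 and 3 and 38.7, 11.4 and 74.6 CPM in KO. With NAC it measured 48.8, 44.0 and 11.6 CPM in WT and 4.66, 34.0 and 42.6 CPM in KO. With AC it measured 7.13, 38.3 and 29.7 CPM in WT and 39.8, 10.1 and 17.9 CPM in KO. The groups overlapped in each treatment, and counts on the whole gene cannot show the loss of 1 exon, so WT and KO below mean libraries with those labels. Depth ran from 4704491 to 26421267 counts. The 12 macrophage markers summed to between 7323 and 20620 CPM in each library, against 4.97 to 40.5 CPM for 8 markers of marrow progenitors, which divide. Granulocyte markers, 12 in number, summed to 239.4 to 1441 CPM.

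The libraries also differed in how their counts leaned with the GC content of the genes. The correlation of log2 CPM, centred on each gene's mean, with GC content across 13634 genes was -0.492, -0.571 and -0.378 in the untreated WT libraries and 0.116, 0.537 and 0.565 in the untreated KO libraries. It was 0.354, -0.160 and 0.324 in WT with NAC against -0.414, -0.281 and -0.316 in KO with NAC, and the AC groups were mixed, at -0.339, 0.407 and -0.00249 in WT and 0.067, -0.276 and 0.452 in KO. Low values mean more counts on AT-rich genes. Because the lean followed the genotype label in the untreated and NAC groups, in opposite directions, the calls of members below are given with values after an offset for GC content and length. The part of the lean in the results was otherwise not tested.

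Promoters are shown for Plk1, Ube2c and Cdc20 of mitosis and for Mcm3, Mcm6 and Rrm1 of S phase, whose counts are described side by side below, beside Top2a, a mitotic gene with another pattern, and Orc3, which went the other way from Plk1. RefSeq promoters (GRCm38.p6, 250 bases before to 50 after the start) were matched for 33 of the 42 members by symbol, with 36 entries, and not for Aurkb, Ccna2, Ccnd1, Ccnd2, Ccne2, Mcm4, Myc, Stmn1 and Tpx2. The 120 bases before the start follow, 5′ to 3′ on the strand of the gene, with capitals marking CCAAT, the cell cycle homology element (CHR: TTTGAA or TTCGAA) and E2F-type letters (TTCCCGC or TTCGCGC or TTGGCGC or TTGCCGC) on either strand.
Plk1 (chr7:122159315-122159434, plus strand): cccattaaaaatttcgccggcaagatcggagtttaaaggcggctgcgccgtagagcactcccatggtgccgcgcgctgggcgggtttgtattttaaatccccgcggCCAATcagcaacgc
Ube2c (chr2:164769809-164769928, plus strand): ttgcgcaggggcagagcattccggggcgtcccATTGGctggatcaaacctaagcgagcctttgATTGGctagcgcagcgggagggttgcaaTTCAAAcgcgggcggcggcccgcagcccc
Cdc20 (chr4:118437344-118437463, minus strand): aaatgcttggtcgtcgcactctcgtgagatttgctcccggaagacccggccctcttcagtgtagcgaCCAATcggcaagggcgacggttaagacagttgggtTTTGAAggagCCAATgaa
Top2a (chr11:99024190-99024309, minus strand): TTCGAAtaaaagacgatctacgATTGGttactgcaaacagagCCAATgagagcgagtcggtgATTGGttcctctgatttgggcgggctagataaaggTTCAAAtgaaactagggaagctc
Mcm3 (chr1:20820313-20820432, minus strand): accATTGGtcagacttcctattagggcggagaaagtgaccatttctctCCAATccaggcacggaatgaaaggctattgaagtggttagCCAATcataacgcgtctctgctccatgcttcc
Mcm6 (chr1:128359706-128359825, minus strand): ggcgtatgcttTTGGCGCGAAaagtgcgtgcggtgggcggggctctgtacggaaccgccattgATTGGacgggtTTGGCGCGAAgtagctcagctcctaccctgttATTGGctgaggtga
Rrm1 (chr7:102441575-102441694, plus strand): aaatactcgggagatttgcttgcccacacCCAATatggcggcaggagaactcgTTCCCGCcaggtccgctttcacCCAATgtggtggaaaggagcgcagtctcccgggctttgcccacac
Orc3 (chr4:34614943-34615062, minus strand): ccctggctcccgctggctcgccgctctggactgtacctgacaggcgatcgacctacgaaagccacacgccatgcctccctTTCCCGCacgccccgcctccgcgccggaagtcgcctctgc

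In the whole window of 300 bases, CCAAT stood in 14 of 15 mitotic and 11 of 15 S phase promoters, against 37.4% of all 32851 promoters in the table. The CHR letters stood in 12 of 15 mitotic and 2 of 15 S phase promoters, against 19.2% of all. The E2F-type letters stood in 3 of 15 mitotic and 9 of 15 S phase promoters, against 9.57% of all. TTGGCGC and TTCGCGC overlap where they stand on opposite strands, as in Mcm6. These are matches of letters, not sites shown to be bound.

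Per kilobase of transcript, the level of the members ran over almost 3 orders of magnitude. Cdkn1a had the highest mean over the 18 libraries, at 172.5 FPKM (CPM per kilobase), followed by the replication clamp Pcna at 97.6 FPKM and the G1 kinase Cdk4 at 43.1 FPKM. Stmn1, which codes for the microtubule regulator stathmin, was the highest of the mitotic genes at 14.1 FPKM, then came the helicase subunits Mcm5 at 13.7 FPKM and Mcm6 at 11.3 FPKM. At the other end stood the proliferation marker Mki67 at 0.744 FPKM, Ccnd2 at 0.683 FPKM, Tyms at 0.512 FPKM, the mitotic motor Kif11 at 0.335 FPKM, cyclin E2 (Ccne2) at 0.293 FPKM, the checkpoint kinase Bub1 at 0.263 FPKM and the kinetochore motor Cenpe at 0.219 FPKM. Bub1 had 0 to 58 counts per library and Ccne2 0 to 47, so their folds rest on few counts.

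**Figure D1:**
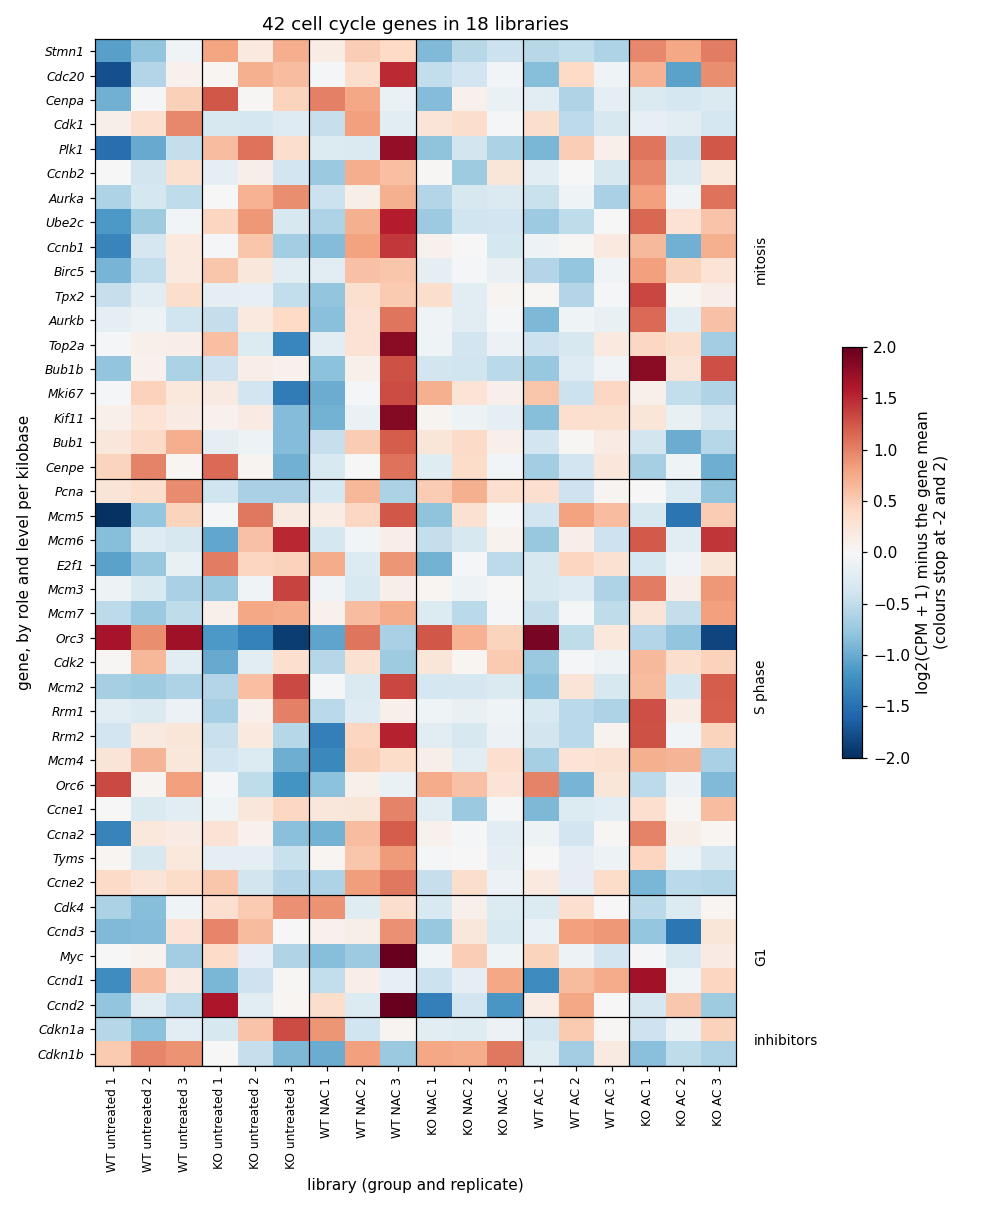
Heat map of the 42 genes (rows, ordered by role and by level per kilobase) in the 18 libraries (columns), coloured by log2(CPM + 1) minus the mean of the gene. WT with NAC replicate 3 is the highest library for 17 of the 42 genes, while Orc3 and Cdkn1b are high in untreated WT and low in untreated KO libraries.

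Of the mitotic genes, Stmn1 separated the genotypes in each treatment. It measured 16.1, 17.0 and 15.4 CPM in WT with AC and 47.9, 42.4 and 50.2 CPM in KO with AC. With no treatment it measured 10.9, 13.6 and 23 CPM in WT and 42.5, 27.9 and 40.6 CPM in KO. With NAC the order was the other way, at 27.1, 34.4 and 32.4 CPM in WT and 12.7, 16.1 and 17.7 CPM in KO. The genotypes did not overlap in any of the 3 treatments.

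Stmn1 (ENSMUSG00000028832, GRCm38 chr4:134468320-134473843) was the single member to rise in KO against WT with AC, with a log2 fold change of 1.48 (adjusted p = 0.0446, SE 0.39) by edgeR's quasi-likelihood test, adjusted over 12304 genes. Every value given with an SE is on the log2 scale. In that comparison 3.75% of all genes passed, 0.788% higher and 2.96% lower, so 1 of 42 members is a share near the background. With the GC and length offset the value was 1.59 (adjusted p = 0.0129), and the Wald test of DESeq2 gave an adjusted p of 0.00201. The call was lost with library totals alone (adjusted p = 0.0568) and with a replicate block (adjusted p = 0.0813). The edgeR call was lost when any 1 of 5 libraries was left out, with adjusted p up to 0.314 without KO with AC replicate 1, while the log2 fold change stayed between 1.47 and 1.58. A two-sided exact permutation test on the 3 libraries of each group gave p = 0.1, the smallest that this design allows. With no treatment the log2 fold change was 1.13 (adjusted p = 0.0763, SE 0.41) and with NAC -0.99 (adjusted p = 0.106, SE 0.33), neither past the threshold.

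The difference between those genotype effects passed in its own test. The genotype effect on Stmn1 was higher with AC than with NAC by 2.54 (adjusted p = 0.0303, SE 0.44), where only 0.0765% of all genes passed, 0.0306% higher and 0.0459% lower, and with the offset by 2.80 (adjusted p = 0.00805), where Rrm1 passed too and 1.77% of all genes did. That call was lost in 9 of 12 fits that each left out 1 library. Within KO libraries Stmn1 rose with AC against NAC by 1.61 (adjusted p = 0.0124, SE 0.38), a call that all 8 other settings kept and 3 of 6 fits without 1 library lost, and without KO with AC replicate 1 the value was 1.58 (adjusted p = 0.127). In that comparison 9 of 9 fibroblast markers tested were higher, with a median of 2.12 on the log2 scale and 4 past the threshold, Col3a1, Col1a2, Pdgfrb and Thy1. The 10 of them summed to 84.8 to 236.8 CPM in KO with AC and 8.25 to 47 CPM in KO with NAC, without overlap. Their collagen genes Col1a1, Col1a2 and Col3a1 had counts in every library, and Lum was at 0 in 13 of 18. The part of such cells in the Stmn1 difference was not tested. The 12 macrophage markers summed to 15500 to 17920 CPM in KO with AC and 10120 to 11950 CPM in WT with AC, also without overlap, and of 11 granulocyte markers tested 9 were lower, with a median of -0.767 and 1 past the threshold. The part of these was not tested either.

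**Figure D2:**
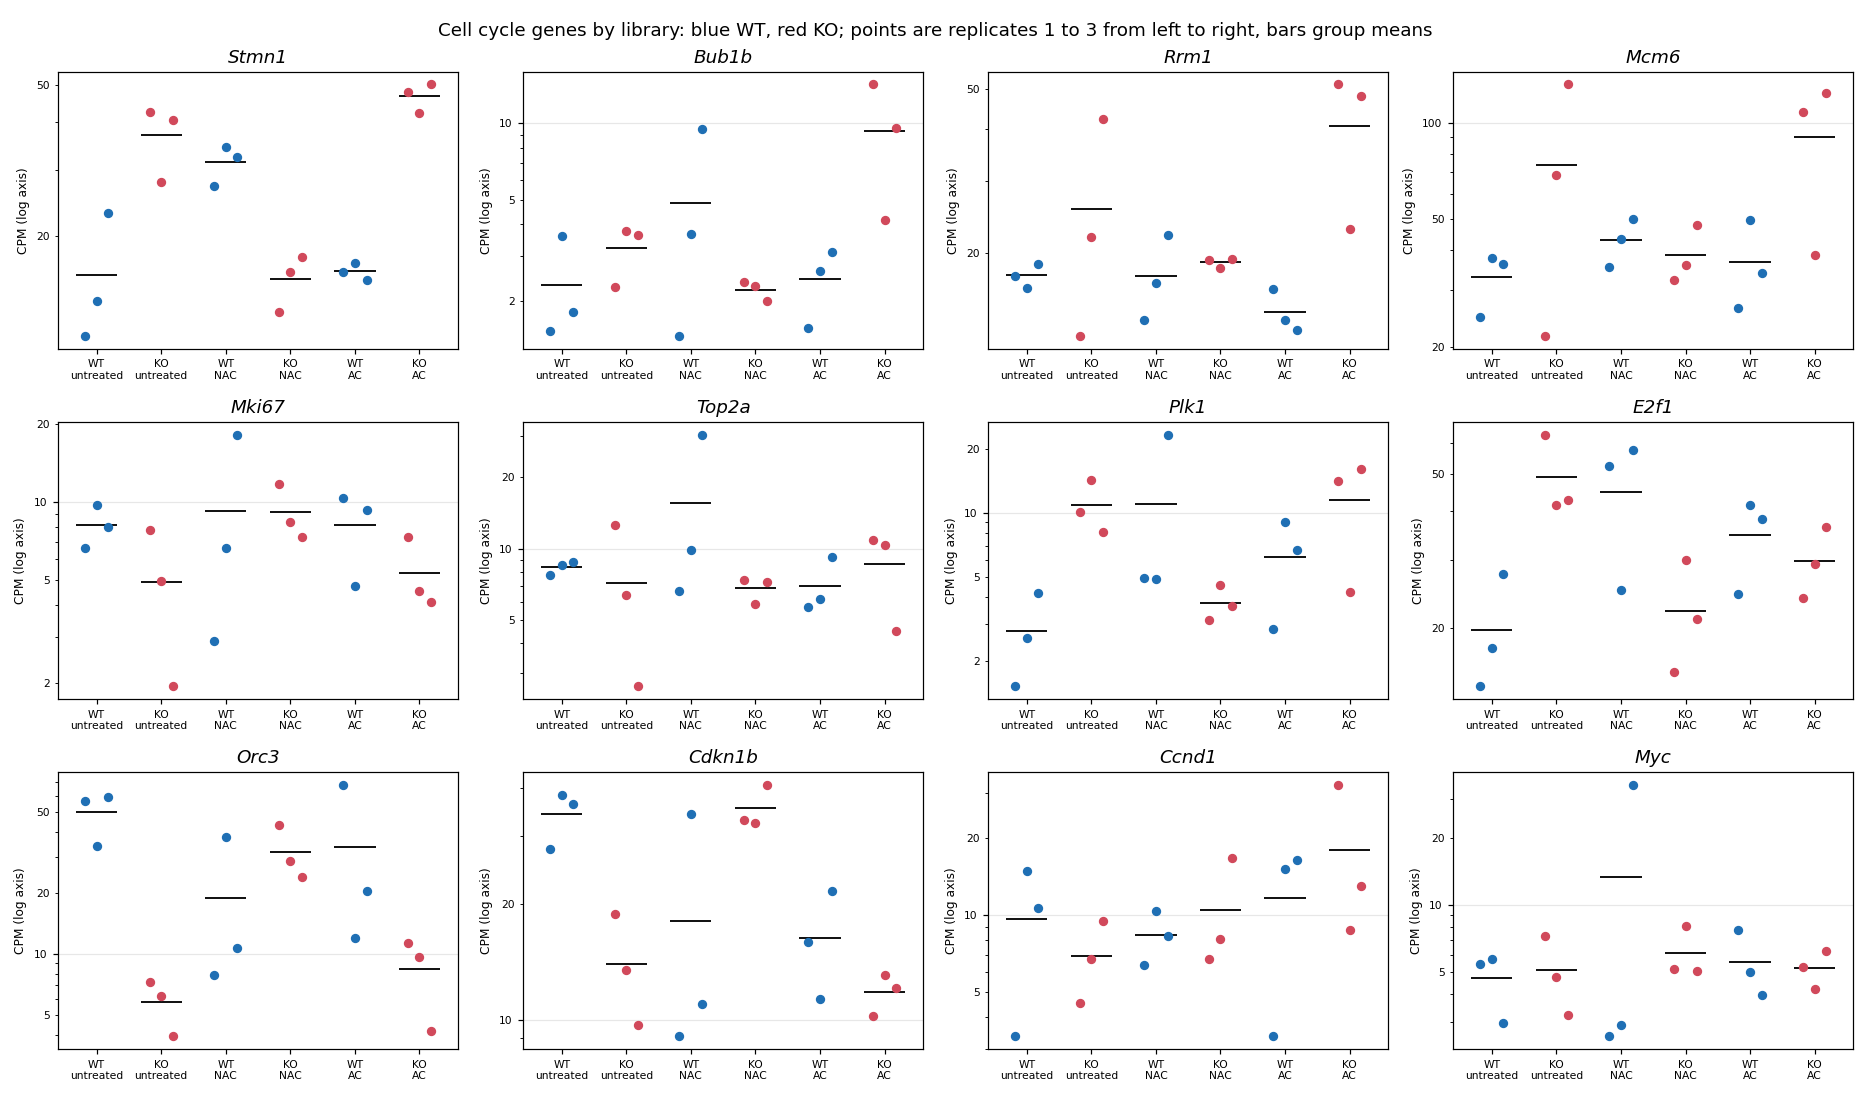
CPM (log axes) of 12 members in each library, with WT in blue, KO in red, points for replicates 1 to 3 from left to right and bars for group means. Stmn1 separates the genotypes in each treatment, lower in KO with NAC and higher in KO otherwise, while Myc is at 34.6 CPM in 1 library and at 8.06 CPM or less in the other 17.

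Bub1b, the checkpoint protein BubR1, measured 1.57, 2.62 and 3.12 CPM in WT and 14.2, 4.17 and 9.60 CPM in KO with AC. With NAC Bub1b measured 1.46, 3.66 and 9.45 CPM in WT and 2.38, 2.29 and 1.99 CPM in KO, and untreated 1.52, 3.62 and 1.81 CPM in WT and 2.26, 3.78 and 3.63 CPM in KO. The AC groups did not overlap, and KO with AC replicates 1 and 3 stood well above the other KO libraries. Bub1b rose with AC against NAC in KO libraries, by 2.08 (adjusted p = 0.0104, SE 0.48) and with the offset by 1.87 (adjusted p = 0.0273). The genotype difference with AC was 1.85 (adjusted p = 0.0534, SE 0.53), just outside the threshold, and passed with the offset at 1.56 (adjusted p = 0.0471).

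Plk1, the polo-like kinase that acts from mitotic entry to cell separation, measured 1.52, 2.58 and 4.17 CPM in untreated WT and 10.1, 14.2 and 8.16 CPM in untreated KO. NAC gave 4.93, 4.88 and 23.3 CPM in WT and 3.12, 4.58 and 3.63 CPM in KO, and with AC 2.83, 9.09 and 6.68 CPM in WT and 14.1, 4.25 and 16.1 CPM in KO. The untreated genotypes did not overlap, and KO was higher. The AC groups overlapped. Plk1 rose in untreated KO against WT by 1.92 (adjusted p = 0.0348, SE 0.50), in WT with NAC against untreated by 1.96 (adjusted p = 0.0272, SE 0.51) and in KO with AC against NAC by 1.61 (adjusted p = 0.034, SE 0.47). With the offset these were 1.15 (adjusted p = 0.212), 1.27 (adjusted p = 0.271) and 1.39 (adjusted p = 0.0552), none past the threshold. Without WT with NAC replicate 3 the NAC difference in WT was 0.76 (adjusted p = 0.409).

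Ube2c and Cdc20 serve the anaphase-promoting complex, as its ubiquitin-conjugating enzyme and its activator. Ube2c measured 1.86, 2.84 and 5.11 CPM in untreated WT, 3.14, 9.31 and 17.9 CPM in WT with NAC and 2.83, 3.46 and 5.26 CPM in WT with AC. In KO it measured 7.55, 10.6 and 4.08 CPM untreated, 2.84, 3.78 and 3.87 CPM with NAC and 13.0, 6.69 and 8.38 CPM with AC. It rose in KO with AC against NAC by 1.43 (adjusted p = 0.043, SE 0.44), where the groups did not overlap, and in WT with NAC against untreated by 1.59 (adjusted p = 0.0331, SE 0.47), where they did. With the offset these were 1.19 (adjusted p = 0.0699) and 1.16 (adjusted p = 0.289), neither past the threshold. Without WT with NAC replicate 3 the value in WT was 0.89 (adjusted p = 0.313).

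Cdc20 measured 2.32, 6.46 and 10.9 CPM in untreated WT, 10.1, 13.3 and 30.5 CPM in WT with NAC and 5.24, 13.8 and 9.61 CPM in WT with AC. The KO libraries measured 10.6, 17.3 and 16.3 CPM untreated, 6.99, 7.67 and 9.77 CPM with NAC and 17.2, 4.38 and 20.4 CPM with AC. WT with NAC replicate 3 was again the highest of all. Cdc20 rose in WT with NAC against untreated by 1.42 (adjusted p = 0.0408, SE 0.44), and without that library the log2 fold change was 0.78 and no longer passed, nor did it with the offset, at 0.90 (adjusted p = 0.392).

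The mitotic kinase Aurka measured 3.65, 4.55 and 4.01 CPM in untreated WT and 6.04, 10.5 and 12.6 CPM in untreated KO. With NAC it measured 4.26, 6.71 and 10.6 CPM in WT and 3.73, 4.68 and 4.81 CPM in KO, and with AC 4.19, 5.70 and 3.50 CPM in WT and 11.5, 5.76 and 14.1 CPM in KO. The genotypes did not overlap untreated or with AC, KO being higher in both, and neither difference passed (1.17, adjusted p = 0.0876, and 1.14, adjusted p = 0.147, by edgeR).

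Mki67, a usual marker of dividing cells, did not separate the genotypes as Stmn1 did. Mki67 measured 6.63, 9.72 and 8.02 CPM in untreated WT, 2.91, 6.64 and 18.2 CPM in WT with NAC and 10.4, 4.74 and 9.35 CPM in WT with AC. KO values were 7.80, 4.96 and 1.94 CPM untreated, 11.7, 8.36 and 7.31 CPM with NAC and 7.35, 4.54 and 4.12 CPM with AC. Groups overlapped in each genotype comparison, and its log2 fold changes of KO against WT were -0.87 untreated, -0.003 with NAC and -0.65 with AC, with adjusted p of 0.242, 0.997 and 0.409 by edgeR.

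Top2a, the topoisomerase that untangles chromosomes, measured 7.76, 8.58 and 8.85 CPM in untreated WT, 6.61, 9.92 and 30.3 CPM in WT with NAC and 5.66, 6.14 and 9.22 CPM in WT with AC. In KO the values were 12.6, 6.39 and 2.64 CPM untreated, 7.41, 5.87 and 7.23 CPM with NAC and 10.9, 10.4 and 4.53 CPM with AC. In the main edgeR fits, without the offset, it passed in none of the 12 comparisons, and WT with NAC replicate 3 was over 2 times any other library.

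The other 10 mitotic genes, Aurkb, Birc5, Bub1, Ccnb1, Ccnb2, Cdk1, Cenpa, Cenpe, Kif11 and Tpx2, passed in no comparison in the main edgeR fits, without the offset. Of the 18 mitotic genes, 17 had a negative log2 fold change in KO against WT with NAC, with a median of -0.776, and 12 a positive one with AC, with a median of 0.546. In WT with AC against NAC all 18 were negative, with a median of -0.909. Without WT with NAC replicate 3 the median with NAC was -0.236, with 12 of 18 genes negative, and that of AC against NAC in WT was -0.258, with 15 negative. No member passed in either comparison.

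In S phase, the origin recognition subunit Orc3 had the largest untreated genotype difference. Orc3 (ENSMUSG00000040044, chr4:34570796-34614944) measured 56.6, 34.0 and 58.8 CPM in untreated WT and 7.29, 6.23 and 3.93 CPM in untreated KO. With NAC it measured 7.85, 37.8 and 10.8 CPM in WT and 42.9, 28.8 and 24 CPM in KO, and with AC 67.9, 12.0 and 20.3 CPM in WT and 11.3, 9.72 and 4.19 CPM in KO. KO lay below WT without overlap untreated and with AC, and the NAC groups overlapped. Orc3 fell in untreated KO against WT, with a log2 fold change of -3.19 (adjusted p = 0.0183, SE 0.46), and with the offset it was -1.84 (adjusted p = 0.0848).

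Orc3 also rose in KO with NAC against untreated, by 2.65 (adjusted p = 0.0353, SE 0.43), and fell in KO with AC against NAC, at -1.90 (adjusted p = 0.00971, SE 0.44), and in WT with NAC against untreated, at -1.44 (adjusted p = 0.0408, SE 0.44). With the offset none of these 3 passed, at 1.35 (adjusted p = 0.164), -0.97 (adjusted p = 0.106) and -0.79 (adjusted p = 0.31). With a GC content of 41.4%, Orc3 is among the AT-rich members.

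Orc6, another subunit of the complex (GC content 47.0%), measured 9.81, 3.46 and 6.59 CPM in untreated WT, 1.46, 3.66 and 2.92 CPM in WT with NAC and 7.55, 1.28 and 4.09 CPM in WT with AC. Its KO libraries were at 3.27, 2.04 and 0.895 CPM untreated, 6.20, 5.48 and 4.22 CPM with NAC and 2.00, 2.99 and 1.35 CPM with AC. Its untreated genotypes did not overlap, by a small gap, and the difference of -1.84 (adjusted p = 0.0586, SE 0.61) did not pass.

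Pcna, the sliding clamp of the DNA polymerases (GC content 42.3%), measured 262, 279.5 and 423 CPM in untreated WT and 166, 140.2 and 139 CPM in untreated KO. With NAC Pcna measured 171, 348 and 142 CPM in WT and 312, 361 and 276 CPM in KO, and with AC 277, 164 and 228 CPM in WT and 221, 180.3 and 126 CPM in KO. KO lay lower than WT untreated without overlap, at -1.20 (adjusted p = 0.0565, SE 0.39), and did not pass. Pcna rose in KO with NAC against untreated, by 1.25 (adjusted p = 0.0418, SE 0.29), and with the offset the value turned to -0.02 (adjusted p = 0.977). The pseudogenes Pcna-ps1 and Pcna-ps2 were counted as genes of their own, so Pcna counts are uncertain where reads fit more than 1 of them.

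E2f1, the transcription factor of S phase genes (GC content 58.1%), went the other way. It measured 14.1, 17.8 and 27.5 CPM in untreated WT, 52.2, 25.1 and 57.6 CPM in WT with NAC and 24.4, 41.6 and 38.2 CPM in WT with AC. KO libraries gave 63.1, 41.5 and 42.8 CPM untreated, 15.4, 29.9 and 21 CPM with NAC and 23.9, 29.1 and 36.4 CPM with AC. It rose in WT with NAC against untreated by 1.13 (adjusted p = 0.045, SE 0.38), and with the offset by 0.34 (adjusted p = 0.541), which did not pass.

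Among the helicase subunits, Mcm2 measured 7.62, 7.34 and 7.86 CPM in untreated WT, 12.3, 10.1 and 33.3 CPM in WT with NAC and 6.71, 15.4 and 9.87 CPM in WT with AC. In KO it measured 8.05, 19.6 and 33.0 CPM untreated, 9.64, 9.76 and 10.2 CPM with NAC and 20.2, 9.68 and 30.6 CPM with AC. It rose in WT with NAC against untreated, by 1.23 (adjusted p = 0.0442, SE 0.41). Without WT with NAC replicate 3 its log2 fold change was 0.47 and did not pass, nor did it with the offset, at 0.69 (adjusted p = 0.321).

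Mcm7 measured 20.1, 17.2 and 20.3 CPM in untreated WT, 31.3, 45.5 and 49.8 CPM in WT with NAC and 21, 28.9 and 20.4 CPM in WT with AC. The KO libraries measured 31.7, 50.9 and 49.7 CPM untreated, 24.1, 19.9 and 29.0 CPM with NAC and 35.4, 20.8 and 52.8 CPM with AC. Its untreated genotypes did not overlap, with KO higher by 1.11 (adjusted p = 0.0742, SE 0.40), which did not pass.

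Mcm3, Mcm6 and Rrm1, the large subunit of ribonucleotide reductase, had their highest values in the same libraries. Mcm6 measured 21.6, 68.9 and 131 CPM in untreated KO and 108, 38.6 and 124 CPM in KO with AC, against 24.9 to 50.1 CPM in the 9 WT libraries and 32.2 to 48.1 CPM in KO with NAC. Rrm1 measured 12.6, 21.9 and 42.3 CPM in untreated KO and 51.3, 22.9 and 48.0 CPM in KO with AC, against 16.4, 13.8 and 13.1 CPM in WT with AC. The same 3 libraries, untreated KO replicate 3 and KO with AC replicates 1 and 3, were the highest for Mcm3, Mcm6 and Rrm1, and untreated KO replicate 1 was the lowest. The 10 B cell markers also had their highest sums in those 3 libraries, at 119.1, 104.8 and 135.9 CPM against 30.6 to 75.4 CPM in the other 15, mostly from Blnk and Ighm, while Pax5 was at 0 in 8 libraries. Their part in these values was not tested. Over the 18 libraries the Pearson correlation of log2 CPM was 0.916 for Mcm3 with Rrm1, 0.873 for Mcm6 with Rrm1 and 0.859 for Mcm3 with Mcm6. Mcm2 correlated with Mcm6 at 0.851 and was also high in those 3 libraries, but was highest in WT with NAC replicate 3.

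In the AC groups, where KO and WT did not overlap for Rrm1, its log2 fold change was 1.43 (adjusted p = 0.0616, SE 0.42), and with the offset it passed at 1.74 (adjusted p = 0.0279). Untreated KO replicate 3 was also the lowest of the 18 libraries for Mki67, Top2a, Orc3, Orc6 and Tyms, the enzyme that makes thymidylate. It was the lowest for 5 and the highest for 4 of the 42 members. Over all 13662 genes it was the lowest for 10.5% and the highest for 14.2%, so these counts are near the background. The GC lean of that library was 0.565, and its part in these values was not tested. The other S phase genes, Ccna2, Ccne1, Ccne2, Cdk2, Mcm4, Mcm5, Rrm2 and Tyms, passed in no comparison in the main edgeR fits.

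The G1 genes differed among themselves. Cdk4 measured 85.2, 73.0 and 124.9 CPM in untreated WT, 248, 112 and 169 CPM in WT with NAC and 109, 167 and 132 CPM in WT with AC. KO values were 167, 190.0 and 251 CPM untreated, 107, 142 and 109 CPM with NAC and 91.4, 109.8 and 136 CPM with AC. The untreated genotypes did not overlap, and the difference of 1.01 (adjusted p = 0.0878, SE 0.39) did not pass.

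Ccnd1, the cyclin D1 gene that growth factors induce, measured 3.38, 14.9 and 10.6 CPM in untreated WT, 6.39, 10.4 and 8.27 CPM in WT with NAC and 3.35, 15.0 and 16.4 CPM in WT with AC. In KO the values were 4.53, 6.74 and 9.5 CPM untreated, 6.71, 8.06 and 16.6 CPM with NAC and 32.2, 8.75 and 12.9 CPM with AC. In the main edgeR fits it passed in no comparison. It shares 23.4% of its exons with LTO1 on the other strand. Its lowest values lay in WT with AC replicate 1 and untreated WT replicate 1, the libraries in which the 10 fibroblast markers summed to 8.07 and 6.76 CPM, and its highest in KO with AC replicate 1, where they summed to 236.8 CPM. The order was not the same throughout, since untreated KO replicate 1 had 115.0 CPM of these markers with Ccnd1 at 4.53 CPM, and KO with NAC replicate 1 had 8.25 CPM with Ccnd1 at 6.71 CPM. The part of such cells in Ccnd1 was not tested.

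Ccnd2, cyclin D2, measured 2.32, 3.88 and 2.97 CPM in untreated WT, 6.28, 3.74 and 32.8 CPM in WT with NAC and 5.35, 8.77 and 4.67 CPM in WT with AC. Its KO libraries were at 16.6, 3.88 and 4.88 CPM untreated, 1.21, 3.38 and 1.56 CPM with NAC and 3.54, 7.32 and 2.5 CPM with AC. The growth-promoting transcription factor Myc measured 5.44, 5.74 and 2.97 CPM in untreated WT, 2.58, 2.90 and 34.6 CPM in WT with NAC and 7.76, 4.99 and 3.96 CPM in WT with AC. In KO libraries Myc ran from 3.23 to 8.06 CPM. WT with NAC replicate 3 was the highest library for both genes. In the main edgeR fits, without the offset, Myc passed in no comparison, nor did cyclin D3 (Ccnd3).

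Cdkn1b measured 27.8, 38.4 and 36.4 CPM in untreated WT and 18.9, 13.5 and 9.70 CPM in untreated KO. With NAC it measured 9.08, 34.2 and 11.0 CPM in WT and 33.0, 32.4 and 40.7 CPM in KO, and with AC 15.9, 11.3 and 21.6 CPM in WT and 10.2, 13.1 and 12.1 CPM in KO. The untreated genotypes did not overlap, KO being lower. Cdkn1b fell in untreated KO against WT, at -1.39 (adjusted p = 0.0494, SE 0.42), rose in KO with NAC against untreated by 1.52 (adjusted p = 0.0478, SE 0.39) and fell in KO with AC against NAC, at -1.57 (adjusted p = 0.0159, SE 0.39). With the offset these were -0.23 (adjusted p = 0.742), 0.42 (adjusted p = 0.525) and -1.05 (adjusted p = 0.0626).

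The other inhibitor, Cdkn1a, measured 240.2, 202 and 306 CPM in untreated WT, 657, 269 and 368 CPM in WT with NAC and 278, 512 and 360.1 CPM in WT with AC. KO libraries gave 286, 528 and 878 CPM untreated, 308, 301 and 327 CPM with NAC and 266, 324 and 492 CPM with AC. It was the highest member per kilobase and passed in no comparison, with overlapping genotypes in each treatment.

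**Figure D3:**
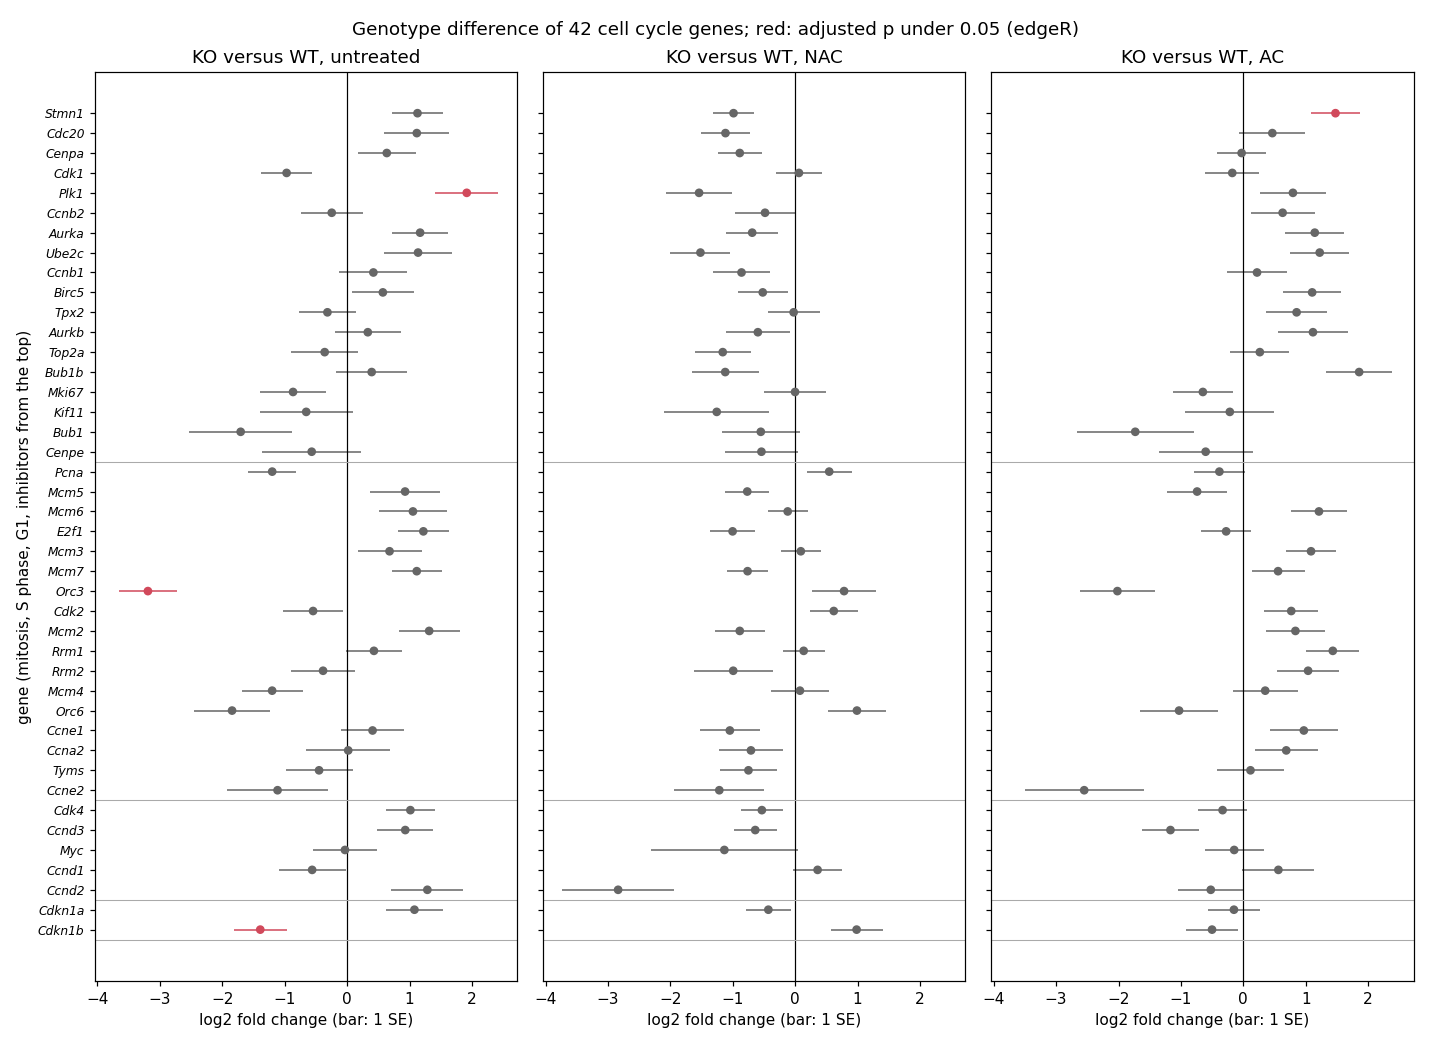
Log2 fold change of KO against WT for the 42 genes in the untreated, NAC and AC libraries, with bars of 1 SE and red for an adjusted p under 0.05. Orc3 and Cdkn1b (lower) and Plk1 (higher) pass untreated, none with NAC, and Stmn1 with AC.

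Set against the whole table, the untreated genotype comparison called 3 of 42 members, 1 higher and 2 lower, while 11.6% of all genes passed, 3.04% higher and 8.56% lower. The members' share lay below that of all genes. Of 12 macrophage markers 2 passed, both lower, while 5 of the 12 were higher by sign, with a median of -0.226. Their sums overlapped, at 7323 to 19970 CPM in KO and 11250 to 19810 CPM in WT. The B cell marker sums, at 60.4 to 119.1 CPM in KO and 30.6 to 56.5 CPM in WT, did not overlap. The part of such cells was not tested. The median log2 fold change of the members was 0.36, against 0.06 over all genes, and 15 had an unadjusted p under 0.05, beside 37.2% of all genes. That median was -0.208 with library totals alone and 0.055 without untreated WT replicate 1. With library totals alone as the scaling, 6 members passed, none of them higher, and 19.9% of all genes did. With DESeq2's size factors 3 passed, 2 of them higher, and 13.5% of all genes. DESeq2's Wald test called 12 of 39 members given an adjusted p, 8 of them higher, and 31.8% of all genes. A single fit of all 18 libraries also called 12, 8 of them higher, and 24.2% of all genes. With the GC and length offset none passed, and neither did any of the other genes.

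Across the 42 members, the untreated genotype difference had a Pearson correlation of 0.721 with GC content, and of 0.062 with the offset. Across all genes tested it was 0.674 without the offset. This is a description over genes of the same libraries. With the offset Orc3 still had the lowest value and Stmn1 was at 1.78 (adjusted p = 0.0849), higher than without it.

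**Figure D4:**
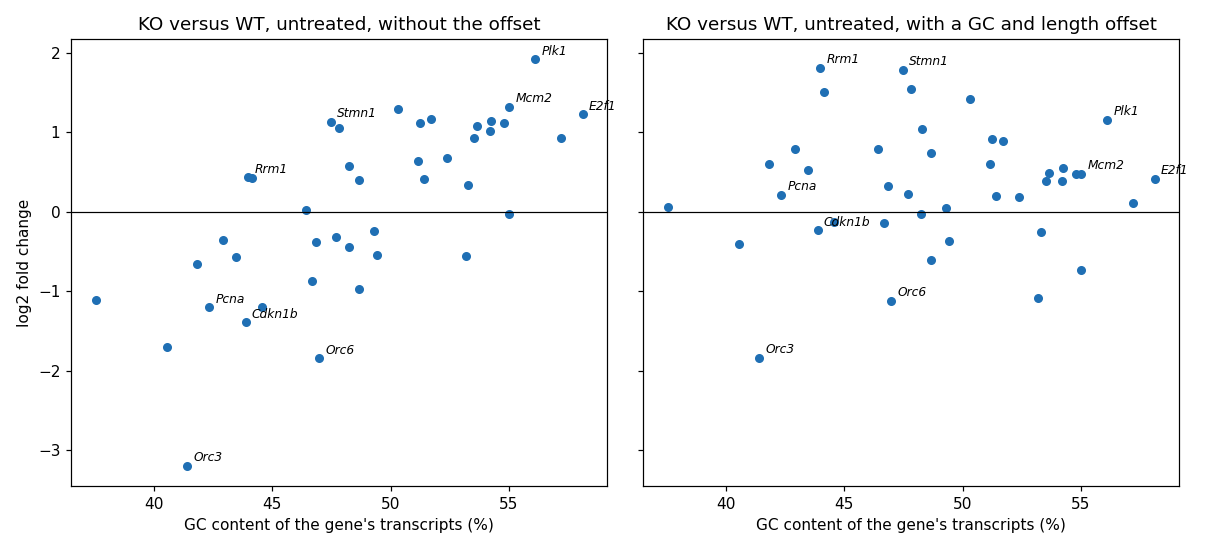
Log2 fold change of KO against WT, untreated, of the 42 genes against the GC content of their transcripts in percent, without (left) and with (right) the GC and length offset. On the left Orc3, Orc6, Bub1 and Cdkn1b are at the bottom and Plk1, Mcm2, Ccnd2 and E2f1 at the top, and on the right the slope is gone.

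With NAC, 0 of 42 members passed between genotypes by edgeR, while 0.864% of all genes did. Of the members 15 had an unadjusted p under 0.05, 13 of them lower in KO, beside 24.2% of all genes. DESeq2's Wald test called 1, beside 4.07% of all genes, Stmn1, with an adjusted p of 0.0432. The smallest edgeR adjusted p was 0.099, of Ube2c, and the median of the members was -0.67, or -0.14 without WT with NAC replicate 3. Without WT with NAC replicate 2, 11 members passed, 5 of them higher, and so did 24.6% of all genes. With AC, 11 members had an unadjusted p under 0.05, beside 24.3% of all genes, and DESeq2's Wald test called 5, 4 of them higher, and 10.5% of all genes. With the offset 4 passed with AC, beside 9.73% of all genes: Stmn1, Bub1b and Rrm1 higher and Ccnd3 lower, at -1.25 (adjusted p = 0.0185), and without KO with AC replicate 2, 6 passed, all higher, beside 13.3% of all genes.

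Between treatments, AC against NAC called 0 of 42 members in WT, where 0.0% of all genes passed, and DESeq2's Wald test also called 0, with 6 members at an unadjusted p under 0.05, beside 4.16% of all genes. In KO it called 6 of 41 members tested, Bub1b, Stmn1, Plk1 and Ube2c higher and Orc3 and Cdkn1b lower, where 7.38% of all genes passed, 2.65% higher and 4.73% lower. With the offset, Bub1b and Stmn1 remained, beside 5.33% of all genes. With the offset and a replicate block together 6 members passed, 4 of them higher, beside 8.25% of all genes. Among them were Orc3 (-1.02, adjusted p = 0.0367), Cdkn1b (-1.08, adjusted p = 0.0265) and Plk1 (1.28, adjusted p = 0.0422). Without KO with AC replicate 1, 0 members and 0 genes in all passed, and without KO with AC replicate 2, 16 members and 23.9% of all genes. With library totals alone 4 passed, 2 of them higher, beside 4.72% of all genes. The fibroblast marker sums given above with Stmn1 did not overlap between these groups either, nor did the B cell marker sums, at 70.8 to 135.9 CPM in KO with AC and 31.0 to 57.5 CPM in KO with NAC. Of 5 B cell markers tested 5 were higher, with a median of 1.19 on the log2 scale, and 1 passed. Ltf of 12 granulocyte markers and Cd34 of 5 progenitor markers also passed higher, while 4 and 2 of these lists were higher by sign. Their medians were -0.577 and -0.144. The part of any of these in the 6 calls was not tested.

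AC against untreated called 0 of 42 members in WT and 0 of 41 in KO, where 0.0% of all genes passed in both, with 6 and 2 members at an unadjusted p under 0.05, beside 12.7% and 14.5% of all genes. DESeq2's Wald test called 0 of 42 in WT, and in KO 0 of the only 3 members to which it gave an adjusted p. NAC against untreated called 6 of 42 members in WT, with Plk1, Ube2c, Cdc20, Mcm2 and E2f1 higher and Orc3 lower, where 8.52% of all genes passed, 4.19% higher and 4.33% lower. Without WT with NAC replicate 3 none passed, beside 0.375% of all genes, and with library totals alone or the offset no gene of the table passed. The 5 that rose have a GC content of 54.2% or more, and Orc3 is AT-rich. Of 5 B cell markers tested there 3 were higher, with a median of 0.579 on the log2 scale, and 1 passed, also higher.

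In KO, NAC against untreated called 3 of 42 members, Orc3, Pcna and Cdkn1b, all higher, where 6.54% of all genes passed, 6.20% higher and 0.338% lower. With DESeq2's size factors or the offset 0 members passed, nor did any other gene. DESeq2's Wald test called 7, 3 of them higher, and 18.5% of all genes. Without untreated KO replicate 1, 14 passed, 5 of them higher, beside 35.5% of all genes. Of the markers tested there, 2 of 12 for macrophages passed higher and 1 of 8 for fibroblasts passed lower. By sign, 6 of 12 and 2 of 8 were higher, with medians of -0.084 and -1.292 on the log2 scale. The fibroblast sums, at 8.25 to 47 CPM with NAC and 78.5 to 115.0 CPM untreated, and the B cell sums, at 31.0 to 57.5 and 60.4 to 119.1 CPM, did not overlap, and their part was not tested. The treatment comparisons share their untreated, NAC or AC libraries, so the values of a gene in them are not independent.

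The genotype effect was compared between NAC and no treatment in a test of its own. It called 14 of 42 members, 4 higher and 10 lower, where 34.8% of all genes passed, 22.1% higher and 12.8% lower, so the share of members called was near that of all genes. The higher were Orc3, Orc6, Cdkn1b and Pcna, all with a GC content of 47.0% or less. The lower were Plk1, Stmn1, E2f1, Ccnd2, Mcm7, Ube2c, Mcm2, Cdc20, Cdk4 and Aurka. In the same test 3 of 6 B cell, 3 of 9 fibroblast and 1 of 12 granulocyte markers passed, all lower. Of 12 macrophage markers 4 passed higher and 2 lower. By sign, 2 B cell, 3 fibroblast, 3 granulocyte and 7 macrophage markers were higher, with medians of -1.997, -1.003, -0.994 and 0.535. The part of such cells was not tested.

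With the offset 8 members passed in that test, 1 of them higher, beside 8.81% of all genes. Mcm6, Ccnb1, Top2a and Rrm1, all lower, passed only with it. Orc3 kept 2.27 (adjusted p = 0.0237), Stmn1 -2.94 (adjusted p = 0.00612), Mcm7 -1.73 (adjusted p = 0.0156) and Ccnd2 -4.33 (adjusted p = 0.0306), while the other 10 of the 14 lost the call, with adjusted p from the lowest for Plk1, at -2.12 (adjusted p = 0.0664), to the highest for Pcna, at 0.04 (adjusted p = 0.964). With library totals alone 8 passed, 6 of them higher, beside 30.8% of all genes, and the median over all genes moved from 0.12 to 0.70. The comparison of the genotype effect between AC and no treatment called 0 of 42 members, where 0.0% of all genes passed, with 5 at an unadjusted p under 0.05, beside 24.1% of all genes. DESeq2's Wald test called 3 of 38 there, and 12.5% of all genes.

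The members did not move as 1 block across the 18 libraries. Among the mitotic genes 120 of 153 pairs had a positive correlation of log2 CPM, with a median of 0.386. The median was 0.141 over the 136 S phase pairs and 0.105 over the 10 G1 pairs. Orc3 correlated with Pcna at 0.898 and with Orc6 at 0.886, and with Plk1 at -0.756. Mcm5 correlated with cyclin D3 at 0.857 and with its own helicase partner Mcm6 at 0.364. The libraries share their differences in GC lean, and these values are descriptions.

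WT with NAC replicate 3 held the highest value of 17 of the 42 members, among them Myc, Ccnd2, Top2a, Mki67, Kif11, Plk1, Cdc20 and Ube2c, whereas it was the highest library for 3.62% of 13662 genes. KO with AC replicate 1 was the highest for 8 members, against 11.9% of all genes, and untreated WT replicate 1 the lowest for 10, against 10.3%. Untreated WT replicate 1 also had the lowest granulocyte, progenitor, fibroblast and B cell marker sums, at 239.4, 4.97, 6.76 and 30.6 CPM. Their part in its low values was not tested. In WT with NAC replicate 3 the progenitor markers summed to 23.9 CPM, below its group mates at 25 and 34.7 CPM. The K562 and erythroid markers summed to 50.9 CPM there, between its group mates at 29.5 and 78.2 CPM. Most of that sum was Tfrc, at 34.0 CPM (group mates 21.7 and 61.6), and Tal1, at 11.9 CPM (5.94 and 14.0). Both had counts in every library. Gata1 of that list was at 1.24 CPM there, its highest of the 18 libraries, with group mates at 0 and 0.0763 CPM. The B cell markers, at 69.9 CPM, and the fibroblast markers, at 54.2 CPM, were highest of the group there, with group mates at 60.2 and 51.6 CPM and at 32.1 and 46.6 CPM. The part of such cells in the high values was not tested. Per the study's methods, reads were aligned to a mouse genome alone, and whether human reads that also fit mouse genes were removed is not given in the sources used here.

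The non-member genes whose log2 CPM followed the mitotic mean most closely over the 18 libraries, of 13620 compared, were the E2F family repressor E2f7 (r = 0.812), the lamin B receptor Lbr (0.787), Tmem121 (0.778), the cytokinesis regulator Racgap1 (0.770) and the centromere protein Cenpm (0.763). E2f7, Racgap1 and Cenpm are on the wider cell cycle list, which supplied 15 of the 50 closest genes. Those 50 also held 3 immunoglobulin genes and 1 gene of the K562 and erythroid markers, Gata1 (0.734).

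That wider list holds 161 other genes, 49 of replication, 49 of mitosis, 45 of cell cycle control and 18 targets of p53. With AC, 1 of 153 tested passed between genotypes, the clamp loader Rfc4 (log2 fold change -1.73), beside 3.75% of all genes, and with NAC 0 of 152 did, beside 0.864%. Untreated, 22 of 147 passed, 4 higher and 18 lower in KO, beside 11.6% of all genes, most of them also lower. The smallest adjusted p there belonged to the origin recognition subunit Orc2 (-2.63), the chromatin assembly factor Chaf1a (2.32) and cyclin G1, Ccng1 (-1.89), as log2 fold changes.

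In KO with AC against NAC 13 of 152 passed, 5 higher and 8 lower, beside 7.38% of all genes, led by the condensin gene Ncapg2 (-1.88), the kinesin Kif2c (2.13) and Lin54 of the DREAM complex (-1.65). In WT with NAC against untreated 13 of 147 passed, 10 higher and 3 lower, beside 8.52% of all genes, led by the dUTPase Dut (2.20), the licensing factor Cdt1 (1.5) and Chaf1a (1.97). In KO the same comparison gave 10 of 150, all higher, beside 6.54% of all genes, led by Orc2 (2.57) and by Dck (2.14), Lin52 (2.02) and Ccng1 (1.78), which tied. The genotype effect differed between NAC and no treatment for 48 of 155, 30 higher and 18 lower, beside 34.8% of all genes, led by Orc2 (3.61), the deoxycytidine kinase Dck (3.48) and Ccng1 (3.22). With the offset, no gene of the wider list passed untreated or for NAC against untreated in WT or KO. Of the 13 in KO with AC against NAC 3 still passed, with Ncapg2 among them, and of the 48 that differed between NAC and no treatment 7 did, with Orc2 among them. Rfc4 did not pass with AC, where 7 others did.

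Several members share exons with a gene on the other strand, and the strand setting of the counting is not given in the sources used here. The shared part was 22.8% of Ube2c (with Tnnc2, at a mean of 0.667 counts), 18.6% of Cdk4 (with Tspan31), 7.25% and 1.45% of Mcm7 (with Ap4m1 and Cops6), 6.93% of Orc6 (with Vps35) and 2.84% of Cdc20 (with Elovl1). Some of these partners had more counts than the member, with means of 3740 for Elovl1 against 198 for Cdc20, 1970 for Vps35 against 61.6 for Orc6 and 4340 for Cops6 against 523 for Mcm7, while Tspan31 had 1820 against 2221 for Cdk4. Reads from such a pair cannot be told apart without strand. Of the members called in any comparison, Stmn1, Orc3, Bub1b, Cdkn1b, Pcna, E2f1, Mcm2 and Aurka share no exon with a gene on the other strand, and Ccnd2 and Plk1 share a stretch only with genes at a mean of under 1 count.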

How the data were processed

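Whole counts per gene were deposited for each library. Per the labels and the submitters' processing notes, the authors trimmed paired reads of 150 bases with Trimmomatic 0.36, aligned them to GRCm38 with STAR 2.5.2b and counted them with featureCounts (Subread 1.5.2), and the counts are not normalized. The annotation release, the strand setting and the handling of reads that fit several genes are not given in the sources used here.

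Symbols and GC content came from GENCODE M21, which gave a symbol for 49056 of 49315 genes. The length of each gene, used per kilobase and in the offset, was the one given with the deposited counts. For each comparison, edgeR 4.0.16 (R 4.3.3) was run on the libraries compared: filterByExpr (minimum count 10, minimum total 15), TMM scaling, glmQLFit and glmQLFTest with robust dispersions, and Benjamini-Hochberg adjustment over all genes tested, with a threshold of 0.05. SE is the size of the log2 fold change divided by the square root of F. CPM uses TMM factors over all 18 libraries. The 12 comparisons were KO against WT in each treatment, the treatments against each other within each genotype, and the 3 differences between genotype effects. The study's own test was the Wald test of DESeq2, used here as an alternative (DESeq2 1.42.0). The other alternatives were DESeq2's size factors, library totals alone, no filter, a GC and length offset (a smooth per library, mgcv 1.9.3), the replicate number as a block, both of these together, a single fit of the 18 libraries, and each library left out in turn.

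Values are given in every library for each member called in any comparison by the main fits and for the highest member of each role per kilobase. The same holds for Mki67, Top2a, Ccnd1 and Cdkn1a, while Myc is given in every WT library and as a range in KO. Of the wider list, up to 3 genes with the smallest adjusted p are named per comparison. The members and lists were chosen with earlier results of these data known. Total counts ranged from 4704491 to 26421267 per library, with a median of 16477929, and 3 libraries a group limit the precision. On data simulated from the AC libraries, with 200 of 12304 genes changed by 2 on the log2 scale, the quasi-likelihood test recovered 47.5% of them and called 8 others, the Wald test 60.5% and 25, and the fit with the offset 46.5% and 8. The simulated libraries had no lean with GC content or length, unlike the real ones. These shares therefore cannot show how the tests or the offset behave where libraries lean. No library was left out of the main fits.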

Additional observations from a re-analysis of the deposited data

Results flagged for a closer look

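The genotype effect of 15 member and treatment pairs differed between treatments by a test of the difference itself (edgeR's quasi-likelihood interaction term, adjusted over all genes tested). For AC against NAC this was Stmn1, by 2.54 on the log2 scale (SE 0.44, adjusted p = 0.0303), where 0.0765% of all genes passed. The other 14 pairs came from NAC against no treatment, where 34.8% of all genes passed. The share of the 42 members called there was near that of all genes. For NAC against no treatment, the KO against WT difference was higher with NAC for Orc3 (log2 difference 4.22), Orc6 (3.09), Cdkn1b (2.62) and Pcna (1.96). It was lower with NAC for Ccnd2 (-3.89), Plk1 (-3.19), Ube2c (-2.38), E2f1 (-2.01), Cdc20 (-1.98), Mcm2 (-1.96), Stmn1 (-1.90), Mcm7 (-1.63), Aurka (-1.61) and Cdk4 (-1.34). The GC lean of the libraries was opposite in these 2 pairs of groups, and with the offset Pcna was at 0.04 (adjusted p = 0.964), while Stmn1 was at -2.94 (adjusted p = 0.00612). For Ccnd2, WT with NAC replicate 3 was at 32.8 CPM and its group mates at 6.28 and 3.74 CPM, and without that library the difference was -2.61 (adjusted p = 0.0283). No cause was tested for these values.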

How the results depend on the processing

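Counts of members called were small and moved with most settings, and the cause was not tested. The share of all genes called, given in brackets, moved as well. KO against WT with AC called 1 member, and it called 2 with DESeq2's size factors (4.04%), 0 with library totals alone (3.11%), 5 with the DESeq2 Wald test (10.5%), 4 with no filter (2.99%), 3 with all 18 libraries in one fit (4.82%) and 4 with the GC and length offset (9.73%). With NAC it called 0, against 1 with the Wald test (4.07%) and 3 with no filter (2.28%). Untreated it called 3, against 6 with library totals alone (19.9%), 12 with the Wald test (31.8%), 12 with all 18 libraries (24.2%) and 0 with the offset (0.0%). AC against NAC in KO called 6, against 1 with all 18 libraries (1.84%) and 2 with the offset (5.33%). NAC against untreated called 6 in WT, against 0 with library totals, with all 18 libraries and with the offset (0.0% each). In KO it called 3, against 0 with DESeq2's size factors (0.0%), 7 with the Wald test (18.5%) and 0 with the offset (0.0%), under which Pcna turned to -0.022. The genotype effect of AC against NAC differed for 1 member, against 0 with library totals (0.0229%), 7 with the Wald test (5.82%), 6 with no filter (1.92%), 0 with all 18 libraries (0.022%) and 2 with the offset (1.77%). For AC against no treatment it was 0, against 3 with the Wald test (12.5%), and for NAC against no treatment 14, against 8 with library totals (30.8%) and 8 with the offset (8.81%). Library totals alone moved the median over all genes from 0.06 to -0.42 in the untreated genotype comparison, and DESeq2's size factors moved it to 0.19. AC against NAC in WT and AC against untreated in WT and in KO gave 0 in all settings run, but for AC against untreated in KO the Wald test gave an adjusted p to only 3 members.

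Leaving out 1 library at a time gave 0 to 6 members for KO against WT with AC, 0 to 11 with NAC, 0 to 21 untreated, 0 to 16 for AC against NAC in KO, 0 to 13 and 0 to 14 for NAC against untreated in WT and in KO, and 0 to 10, 0 to 1 and 9 to 18 for the differences of genotype effects between AC and NAC, AC and no treatment, and NAC and no treatment. The share of all genes ran to 13.3%, 24.6%, 46.3%, 23.9%, 34.2%, 35.5%, 6.14%, 8.11% and 46.2% in these, in the same order. The top of these came without KO with AC replicate 2, WT with NAC replicate 2 or untreated KO replicate 1, except for AC against no treatment, where 1 member passed without untreated WT replicate 3 or KO with AC replicate 3. KO against WT fell to 0 with AC without WT replicate 1 or KO replicates 1 or 3, and untreated without WT replicates 2 or 3 or KO replicate 3. NAC against untreated fell to 0 in WT without untreated replicates 1 or 2 or NAC replicate 3, and in KO without any library but untreated replicate 1. The difference between NAC and no treatment called 9 without KO with NAC replicate 1. Over the called members, 171 of 272 values in the other settings kept direction and call, 100 kept direction alone and 1 turned. Of 294 values with 1 library left out, 190 kept the call and 104 lost it.

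The replicate numbers were not used as pairs: in no comparison did all 3 same-numbered pairs correlate above 0.1, and in none did every library correlate best with its own number (0 to 4 of 6). With a replicate block, KO against WT called 0 members with AC (3.03% of all genes) and 1 with NAC (1.82%), NAC against untreated in KO 0 (0.0%) and the AC against NAC difference 2 (1.16%). The GC and length offset with the replicate block gave 2 with AC (4.45%), 0 untreated (0.0%), 0 in WT (0.118%) and 0 in KO (0.0%) for NAC against untreated, and 6 for the NAC against no treatment difference (5.94%). For AC against NAC in KO it gave 6 (8.25%), against 2 with the offset alone (5.33%). Depth limits the rarest members, Bub1 and Ccne2, which reached 0 counts in 1 library each.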
